A study of Mus musculus with 2 samples.

Results

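The miR-125 and miR-99/100 families were described in left cerebral cortex from mice of the strain B6CASTF1/J, the F1 hybrid of C57BL/6J and CAST/EiJ, at an age of 18 to 20 months. Their 6 genes, Mir125a, Mir125b-1, Mir125b-2, Mir99a, Mir99b and Mir100, were taken by symbol from the 2202 miRNA genes of GENCODE M21, with no threshold on a measured value. MicroRNA sequencing, which reads size-selected RNA (here shorter than 30 nucleotides) after adapters are added, was done on total RNA of 1 group of 2 libraries labelled as biological replicates 1 and 2. No treatment, genotype or age was contrasted. The labels give the mice as female in one field and male in another, and both libraries carry one donor identifier, so the spread between them may be technical. Both parental alleles were counted together.

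A miRNA is cut from a hairpin, and its seed, bases 2 to 8 counted from the 5′ end, selects the mRNAs it represses. miR-125 is the vertebrate relative of lin-4, a miRNA that times development in Caenorhabditis elegans, and it targets mRNAs such as Lin28. miR-99 and miR-100 form an old animal family whose known targets include mTOR. In mouse, genes of both families lie beside let-7 genes, whose miRNAs accumulate as cells differentiate, and miR-125b acts on dendritic spines and synapses of neurons.

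The mature 5p sequences below, from RefSeq on build GRCm38.p6, are shown because they define the 2 families and because 1 of them comes from 2 genes. Capitals mark the seed.
miR-125a-5p (Mir125a): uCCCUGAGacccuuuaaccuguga
miR-125b-5p (Mir125b-1 and Mir125b-2): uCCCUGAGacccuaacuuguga
miR-99a-5p (Mir99a): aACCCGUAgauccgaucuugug
miR-99b-5p (Mir99b): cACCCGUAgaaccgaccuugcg
miR-100-5p (Mir100): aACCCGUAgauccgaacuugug
All 6 genes matched RefSeq and gave 5 distinct 5p sequences. The miR-125 forms have the seed CCCUGAG and the miR-99/100 forms the seed ACCCGUA. miR-125a-5p and miR-125b-5p are alike over their first 13 bases and then differ in sequence and in length, at 24 and 22 nucleotides. miR-99a-5p differs from miR-100-5p by a single substitution, A16U, counted from 1 at the 5′ end with the base of miR-100-5p first. miR-99b-5p differs from miR-99a-5p at 4 positions, A1C, U11A, U16C and U21C, with the base of miR-99a-5p first, none of them in the seed.

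The 2 genes of miR-125b can be told apart by their other arm, whose sequences are shown for that reason, again with bases 2 to 8 in capitals.
miR-125b-1-3p (Mir125b-1): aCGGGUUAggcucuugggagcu
miR-125b-2-3p (Mir125b-2): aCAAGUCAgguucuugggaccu
The annotated Mir125b-1 and Mir125b-2 share a run of 24 nucleotides that holds the whole of miR-125b-5p. None of the other 4 members shares a run of 20 nucleotides with any miRNA gene, the longest being 16 between Mir99a and Mir100, while 21.3% of expressed miRNA genes share such a run. A read of miR-125b-5p thus matches 2 annotated genes. Only exact runs between annotated miRNA genes were compared, so copies elsewhere in the genome and alignments with a mismatch were not covered. Reads with several places were listed apart from the gene counts and were not split by gene, and made up 41.8% (replicate 1) and 46.4% (replicate 2) of all reads. The levels of Mir125b-1 and Mir125b-2 below are therefore uncertain and cannot be read as the level of miR-125b-5p.

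The 6 genes form 3 clusters on the plus strand, each in the order miR-99/100 gene, let-7 gene, miR-125 gene (coordinates in mm10). On chromosome 17, Mir99b (ENSMUSG00000065396.1, 17830188 to 17830257), Mirlet7e and Mir125a (ENSMUSG00000065479.2, 17830812 to 17830879) lie within the gene Spaca6, with gaps of 94 and 367 bases. Mir99b is intronic, and 47 of the 68 bases of Mir125a are in an annotated Spaca6 exon. On chromosome 9, Mir100 (ENSMUSG00000093011.1, 41531425 to 41531504), Mirlet7a-2 and Mir125b-1 (ENSMUSG00000093354.1, 41581926 to 41582002) lie in introns of the non-coding gene 3110039I08Rik, which RefSeq calls Mir100hg, with gaps of 5211 and 45114 bases. Mir125b-1 also lies wholly in an exon of the transcript Gm28119 of its own strand, and Mir100 in an exon of Gm48742 on the other strand. On chromosome 16, Mir99a (ENSMUSG00000065530.1, 77598936 to 77599000), Mirlet7c-1 and Mir125b-2 (ENSMUSG00000065472.1, 77646273 to 77646343) lie in introns of the non-coding gene Mir99ahg, with gaps of 656 and 46522 bases.

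Replicate 1 held 5166667 and replicate 2 held 4459993 sense counts of miRNA genes. Levels are given as sense counts per 1000000 of these totals (CPM), so a count of 0 allows levels of up to 0.581 CPM (replicate 1) or 0.673 CPM (replicate 2). Exact (Clopper-Pearson) intervals cover counting error only. Of 12 neuronal marker genes 9 were expressed (2 CPM or more in each library). The list summed to 79277 CPM in replicate 1 against 66141 CPM in replicate 2, of which Mir132 alone held 42450 and 33684 CPM. Of the expressed genes of this list, Mir137 (5203 against 8033 CPM), Mir9-1, Mir9-2 and Mir9-3 were lower in replicate 1 than in replicate 2. Mir124a-1, Mir124a-2 and Mir124a-3 define neurons. They had 21, 1 and 2 counts in replicate 1 and 6, 2 and 1 counts in replicate 2. Of the 12 neuronal genes 10 share a run of 20 nucleotides or more with another miRNA gene, among them the Mir124a and Mir9 genes. The levels and the sum of this list thus leave out reads with several places. Of the 5 striated muscle markers, Mir1a-1, Mir1a-2, Mir133a-1 and Mir133a-2 had no count. Mir206 had 94 counts in replicate 1 and 292 in replicate 2. In this list 4 genes share a run of 20 nucleotides or more with another miRNA gene, so a count of 0 does not show absence.

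All 6 genes were expressed, against 18.6% of all miRNA genes (409 of 2202). Together they held 6.14% of sense counts in replicate 1 (95% interval 6.12% to 6.16%) and 3.75% in replicate 2 (3.74% to 3.77%), a mean of 4.95% ± 1.69 (SD, n = 2). The median of their mean levels was 6999 CPM, against 88.9 CPM over all expressed genes. By mean level they took ranks 12, 15, 23, 42, 98 and 142, in the order Mir125a, Mir99a, Mir99b, Mir100, Mir125b-1 and Mir125b-2. These shares and ranks leave out reads with several places, for the members and for all other genes.

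**Figure D1:**
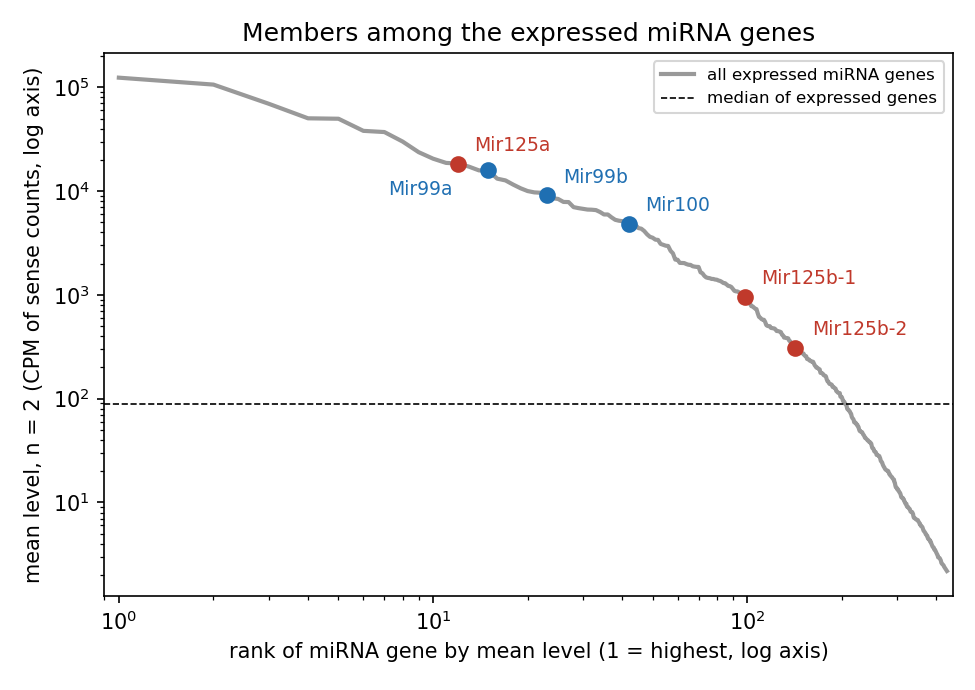
Mean level in CPM of sense counts (n = 2) of each expressed miRNA gene against its rank, both on log axes, with miR-125 genes as red and miR-99/100 genes as blue points and the median of expressed genes as a dashed line. The 6 points run from rank 12 for Mir125a to rank 142 for Mir125b-2, all above the median of 88.9 CPM.

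Mir125a, the gene of miR-125a, had 28207 CPM in replicate 1 (145734 counts, 95% interval 28064 to 28350) against 8601 CPM in replicate 2 (38359 counts, 8515 to 8687). It ranked 8th in replicate 1 and 24th in replicate 2, and its mean of 18404 ± 13863 CPM carries an SD of 75.3% of the mean. Mir125b-1 had 1068 CPM in replicate 1 (1040 to 1097) against 846.0 CPM in replicate 2 (819.2 to 873.4), a mean of 957.2 ± 157.3 CPM. Mir125b-2 was the lowest member in both libraries, with 290.9 CPM in replicate 1 (276.4 to 306.0) against 328.3 CPM in replicate 2 (311.7 to 345.5), a mean of 309.6 ± 26.4 CPM.

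Mir125a thus held most of the counts of its seed family, at 95.4% of the counts of the 3 miR-125 genes in replicate 1 and 88.0% in replicate 2. The ratio of Mir125b-1 to Mir125b-2, the 2 genes of the same 5p sequence, was 3.67 in replicate 1 and 2.58 in replicate 2. These shares leave out any miR-125b-5p reads listed with several places.

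Among the miR-99/100 genes, Mir99a had 15261 CPM in replicate 1 (78850 counts, 95% interval 15156 to 15367) against 16354 CPM in replicate 2 (72938 counts, 16236 to 16472), a mean of 15808 ± 772.5 CPM. Mir99b had 11851 CPM in replicate 1 (11758 to 11945) against 6487 CPM in replicate 2 (6413 to 6562), a mean of 9169 ± 3793 CPM. Mir100 had 4732 CPM in replicate 1 (4673 to 4791) against 4925 CPM in replicate 2 (4860 to 4991), a mean of 4828 ± 136.8 CPM. Mir99a was the highest and Mir100 the lowest of the 3 in both libraries. Mir99a stood 3.23-fold above Mir100 in replicate 1 and 3.32-fold in replicate 2, so the genes whose 5p sequences differ by a single base kept nearly the same ratio. The 3 genes summed to 31844 CPM in replicate 1 against 27766 CPM in replicate 2. The 3 miR-125 genes summed to 29566 CPM in replicate 1 against 9775 CPM in replicate 2.

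In the order of levels, the place of Mir125a could not be fixed beyond the spread of the libraries. It was 1.85-fold above Mir99a in replicate 1 and below it in replicate 2, at 0.526 of its level, and its range over the libraries also overlapped that of Mir99b. Mir99a, Mir99b and Mir100 did not overlap, and Mir100, Mir125b-1 and Mir125b-2 lay apart by more than the distance between replicates. A miRNA read covers the mature form and not the hairpin, so levels were not divided by length. The annotated genes are 65 to 80 bases long, and the order of mean levels was the same per base.

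Within the clusters the genes stood at unlike levels. On chromosome 17, Mir125a was above Mir99b, 2.38-fold in replicate 1 and 1.33-fold in replicate 2, a log2 ratio of 0.83 ± 0.60 (SD, n = 2). On chromosome 9, the miR-125 gene was below its partner, with a log2 ratio of Mir125b-1 to Mir100 of -2.15 in replicate 1 and -2.54 in replicate 2. On chromosome 16, the log2 ratio of Mir125b-2 to Mir99a was -5.71 in replicate 1 and -5.64 in replicate 2. The lower miR-125 gene of these last 2 clusters is in each case a gene of the shared miR-125b-5p sequence.

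The let-7 genes of the 3 clusters also stood at unlike levels. Mirlet7e, whose let-7e has a single gene, had 27203 CPM in replicate 1 against 32838 CPM in replicate 2 and was the highest of the chromosome 17 cluster by mean level. The order turned between libraries, with Mir125a at 1.04 times the level of Mirlet7e in replicate 1 and at 0.262 of it in replicate 2. Mirlet7a-2 had 128.9 CPM in replicate 1 against 178.7 CPM in replicate 2, the lowest of the chromosome 9 cluster. Mirlet7c-1 had 334.8 CPM in replicate 1 against 426.9 CPM in replicate 2, close to Mir125b-2 beside it. Both share a run of 23 nucleotides with another let-7 gene, Mirlet7a-2 with Mirlet7a-1 and Mirlet7c-1 with Mirlet7c-2. Their counts, and the shares of cluster counts that include them, are therefore uncertain in the same way as those of Mir125b-2. Mir99a held 96.1% of the counts of its cluster in replicate 1 and 95.6% in replicate 2, and Mir100 held 79.8% and 82.8% of its own.

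**Figure D2:**
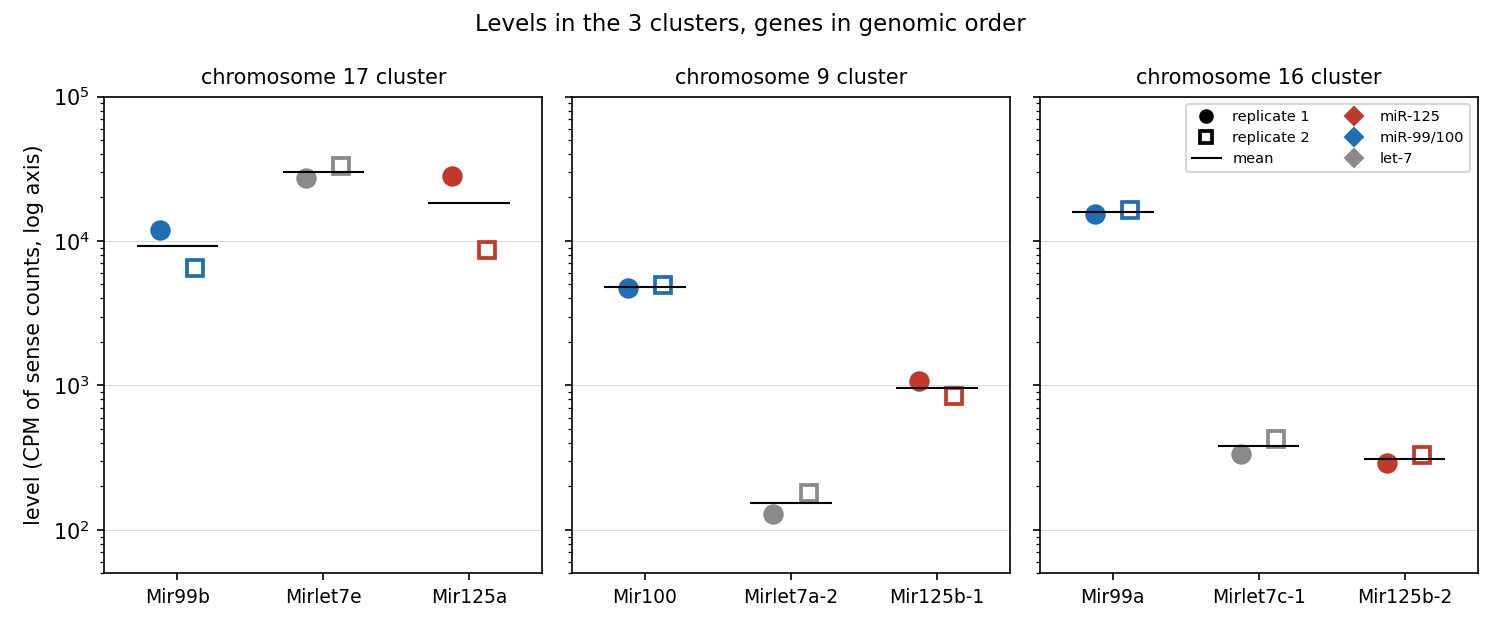
Level of each gene in CPM of sense counts (log axis) in the 3 clusters, genes in genomic order from left to right, with filled circles for replicate 1, open squares for replicate 2 and a line at their mean. On chromosome 17 all 3 genes lie above 6487 CPM and Mir125a shows the widest gap between libraries (28207 and 8601 CPM), while on chromosomes 9 and 16 the miR-99/100 gene lies above both of its neighbours.

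The libraries were then set against each other by the log2 ratio of replicate 1 to replicate 2, scaled by edgeR's trimmed mean of M values (TMM). This compares 2 libraries of 1 group and has no replicate check. Of the 6 members 1 differed by over 2-fold, against 23.2% of expressed genes (95 of 409). That gene was Mir125a, 2.88-fold higher in replicate 1 (log2 ratio 1.53, counting interval 1.51 to 1.54), the direction in which 14.4% of expressed genes passed 2-fold. No member was over 2-fold lower in replicate 1, against 8.8% of expressed genes. On sense totals the split of genes past 2-fold was 80 higher and 22 lower in replicate 1, against 59 and 36 under TMM, and Mir125a had a log2 ratio of 1.71. Mir99b, which lies 624 bases upstream of Mir125a from start to start, followed with a log2 ratio of 0.68.

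The other 4 members stood closer between libraries, with log2 ratios of 0.15 for Mir125b-1, -0.24 for Mir100, -0.29 for Mir99a and -0.36 for Mir125b-2. Each of these is smaller in size than the median absolute log2 ratio of expressed genes, 0.54. Each kept its sign on sense totals, with DESeq2 size factors and with TMM run on all genes. Scaling by sense totals instead of TMM raises every such ratio by 0.19. The counting intervals of all 6 ratios leave out 0. The miR-99/100 genes summed to a log2 ratio of 0.01, whereas the miR-125 genes summed to 1.41, nearly all of it Mir125a.

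**Figure D3:**
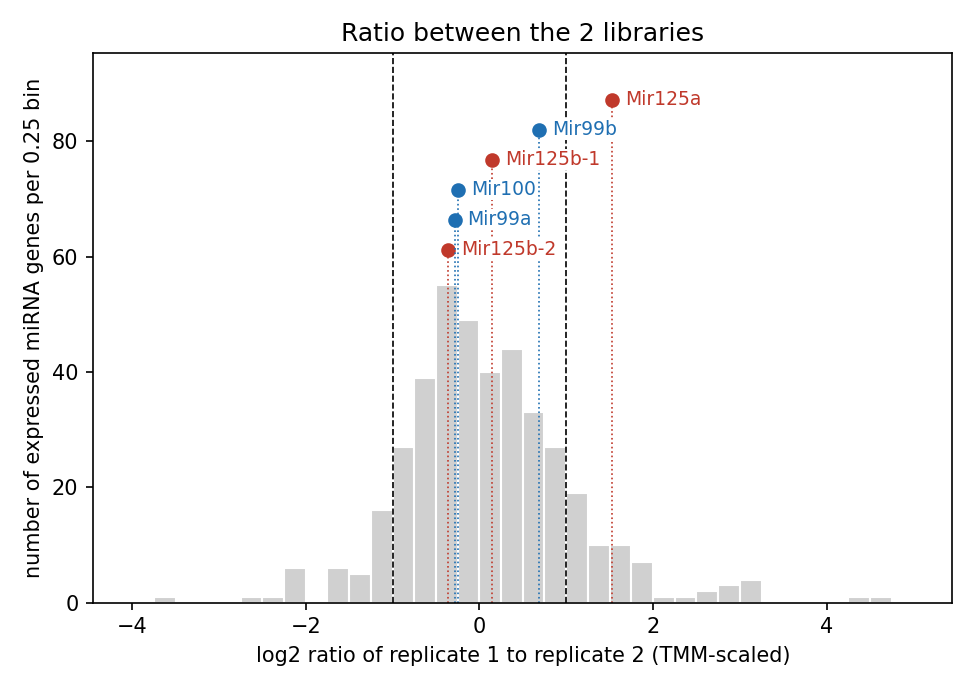
Histogram of the TMM-scaled log2 ratio of replicate 1 to replicate 2 over the 409 expressed miRNA genes in bins of 0.25, with dashed lines at 2-fold and the members marked above it (miR-125 red, miR-99/100 blue; their height only separates the labels). Mir125a at 1.53 lies beyond the 2-fold line and the other 5 members lie between -0.36 and 0.68.

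Mirlet7e, between Mir99b and Mir125a, had a log2 ratio of replicate 1 to replicate 2 of -0.46, opposite in sign to both. All 12 let-7 genes had a negative ratio, from -1.33 to -0.28, as did 50.4% of expressed genes, and all 12 did so under each of the other scalings. The ratios of Mirlet7e and Mir125a, 367 bases apart, differed by 1.99. Among 105 pairs of adjacent expressed miRNA genes on 1 strand with a gap of at most 10 kb, the median absolute difference was 0.75, and this pair ranked 10th from the largest. Mir99b and Mirlet7e differed by 1.14 and ranked 36th, Mir100 and Mirlet7a-2 by 0.41 and ranked 75th, and Mir99a and Mirlet7c-1 by 0.25 and ranked 81st.

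Markers of some other cell types also differed between the libraries, while others stood closer. The epithelial list, with 7 of 7 genes expressed, summed to 1555 CPM in replicate 1 against 398.0 CPM in replicate 2, a summed ratio of 3.44 after TMM, although its gene Mir203 had 77.8 CPM in replicate 1 against 274.0 CPM in replicate 2. The endothelial gene Mir126a had 21256 CPM in replicate 1 against 10411 CPM in replicate 2, and the 2 mural genes Mir143 and Mir145a summed to 5077 and 9896 CPM. In replicate 1 and replicate 2, the erythroid list (3 of 3 genes expressed) summed to 122.1 and 71.5 CPM. Of its genes, Mir451a stood at 47.0 and 39.7 CPM, Mir144 at 32.1 and 13.0 CPM and Mir486 at 43.0 and 18.8 CPM. The oligodendrocyte list (2 of 3) summed to 3952 and 3864 CPM in the same order. The leukocyte and microglial list (4 of 4) summed to 1381 and 1331 CPM, of which Mir150 alone held 1286 and 1154 CPM. Its other genes were lower in replicate 1, with TMM-scaled log2 ratios of -1.10 for Mir142, -0.94 for Mir155 and -1.23 for Mir223. In the same libraries the striated muscle list (1 of 5) summed to 18.2 and 65.5 CPM, Mir122 of liver stood at 54.6 and 60.1 CPM, and Mir375 of endocrine cells at 310.5 and 256.5 CPM. The part of any of these in the ratio of Mir125a was not tested, and in bulk tissue fewer cells of a type and less RNA per cell cannot be told apart.

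The RefSeq mature sequences with the seed CCCUGAG came from 6 genes, the 3 members and Mir351, Mir6394 and Mir6367. Mir351, on the X chromosome, is shown for its shared start.
miR-351-5p (Mir351): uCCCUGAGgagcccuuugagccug
It is alike with miR-125b-5p over the first 8 bases, so the unbroken run from the 5′ end stops at the last base of the seed. Mir351 had 406.6 CPM in replicate 1 (2101 counts) against 137.7 CPM in replicate 2 (614 counts), a log2 ratio of 1.38. Mir125a stood 69.4-fold above it in replicate 1 and 62.5-fold in replicate 2. Mir6394 and Mir6367 had no count in either library. No other gene in the RefSeq set has the seed ACCCGUA of the 3 miR-99/100 genes.

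miR-10 is related in sequence to miR-100 and is known from the Hox clusters, where it marks posterior tissue; its sequence is shown for the run it shares.
miR-10a-5p (Mir10a): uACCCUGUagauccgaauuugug
The longest shared run is 11 nucleotides, bases 6 to 16 of miR-100-5p and 7 to 17 of miR-10a-5p, and the seeds differ. With miR-10b-5p the longest run of miR-100-5p is 5 nucleotides. Mir10a had 17.8 CPM in replicate 1 against 35.2 CPM in replicate 2, and Mir10b had 16.3 and 43.9 CPM. Mir100, the lowest of the miR-99/100 genes, stood 291-fold above Mir10b in replicate 1 and 112-fold in replicate 2.

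For each member the 2 expressed genes with the most alike levels were found by Euclidean distance on log2(CPM + 1) over the 2 libraries, which cannot tell a shared pattern from a shared level. Mir125a was nearest to Mir126a, at a distance of 0.49, and Mir328 (15945 CPM in replicate 1 against 9406 CPM in replicate 2), at 0.83. Mir99a was nearest to Mir23a (0.44) and Mir29a (0.45), Mir99b to Mir30d (0.26) and Mir330 (0.27), and Mir100 to Mir138-1 (0.13) and Mir324 (0.15). Mir125b-1 was nearest to Mir431 (0.22) and Mir1839 (0.25), and Mir125b-2 to Mir17 (0.22) and Mir101b (0.23). No gene lay as close to Mir125a as the second nearest of any other member did.

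The strand of the reads did not bear on the counts of the members. None of the 6 had an antisense count in either library, and their unstranded counts equalled their sense counts. Of the clustered genes Mirlet7e alone had no unstranded count; Gm25927, a miRNA gene with no sense count, is annotated opposite it.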

How the data were processed

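The deposited tables hold raw read counts per miRNA gene, 1 table per library, on mouse build mm10 and GENCODE M21, per the deposited descriptions of the files. For the aligner and counter: not given in the sources used here. Of 3 count columns the sense column was used, the stranded column with the larger gene total. Totals exclude the 4 lines of unassigned reads, which held 65.2% of reads in replicate 1 and 65.1% in replicate 2. All reads numbered 14842903 in replicate 1 and 12785704 in replicate 2. All 2202 gene identifiers matched GENCODE M21.

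CPM were computed from sense counts. Ratios between libraries add 0.5 to each count and use edgeR 4.0.16 TMM factors from the 404 genes kept by filterByExpr; DESeq2 1.42.0 size factors, sense totals and unfiltered TMM were alternatives. The ratio was checked on simulated counts with known folds, with as many genes raised as lowered. That check does not cover an unbalanced split of genes. With 1 group of 2 libraries no p-value was computed. Named genes were the 6 members, their let-7 neighbours, genes of the same seed, Mir10a, Mir10b, marker genes and, per member, the 2 genes of most alike level. Marker Mir486a was matched to Mir486, its symbol in GENCODE, through RefSeq synonyms. Members and lists were chosen with earlier results of these data known.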

Additional observations from a re-analysis of the deposited data

Results flagged for a closer look

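Reads with several places in the genome, which lie outside the gene counts, numbered 6203588 in replicate 1 and 5928954 in replicate 2. They bear on Mir125b-1 and Mir125b-2, whose 5p sequence is held by 2 genes, and how many of them are miR-125b-5p was not tested. As these reads are also outside the totals, the levels, shares and ranks of all members refer only to reads counted to a gene.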

How the results depend on the processing

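All 6 members stayed expressed at 10 CPM, in the unstranded column and in each library alone. Their summed level was 49475 ± 16878 CPM, with 48810 CPM under TMM scaling, 53585 CPM in the unstranded column, and 37541 to 61410 CPM with 1 library left out. The count past 2-fold was 1 under every scaling and in the unstranded column, and 2 at a fold of 1.5, where Mir99b was added. In the unstranded column the mean level of Mir99a was 17108 CPM against 15808 CPM, and that of Mir100 was 5226 CPM against 4828 CPM. Both shifts exceeded the SD between libraries, while those of the other members did not. No sign of a member's ratio between libraries, or of the 3 ratios of a miR-125 gene to the miR-99/100 gene of its cluster, changed under the alternatives run. The log2 ratio of Mir125a to Mirlet7e turned with the library, at 0.05 in replicate 1 and -1.93 in replicate 2. Leaving out 1 library gave log2 ratios of 0.41 to 1.25 for Mir125a to Mir99b, -2.54 to -2.15 for Mir125b-1 to Mir100 and -5.71 to -5.64 for Mir125b-2 to Mir99a. Per base of annotated gene, an alternative chosen after seeing the data, the ratio of Mir125b-2 to Mir99a was -5.80, since Mir125b-2 is the longer gene. No paired analysis was possible because there is 1 group. With 2 libraries no value has a replicate check of its spread, and the level of Mir125a rests on which library is read, 28207 CPM in replicate 1 and 8601 CPM in replicate 2.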
